A study of Gallus gallus with 30 samples.

Results

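The genes described here reached their highest level before ovulation in the granulosa cells of F1, the largest follicle, and were still at a comparable or higher level in the postovulatory follicle (POF). They were selected on the stage means of FPKM, a count of fragments scaled by gene length and library total. The F1 mean had to be at least 5 FPKM, the highest of the 9 stages before ovulation and at least 4 times the mean of the small white follicle (SWF), and the POF mean at least 0.5 times the F1 mean. Identifiers that the study lists with a symbol among the most highly expressed genes shared by its stages were left out. Of 23910 identifiers, 83 met the rule. A further 227 met its F1 part but fell under 0.5 times F1 in POF, and they serve below as the reduced F1-peak genes. The 83 members were thus 26.8% of the 310 F1-peak genes.

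In the hen ovary, follicles leave a pool of small white and yellow follicles and enter a size-ordered hierarchy, from F5 up to F1. F1 is the next follicle to ovulate, and its granulosa cells are the main source of the progesterone that precedes ovulation. After ovulation the ruptured follicle remains as the POF, which does not form a corpus luteum in birds and regresses over the following days.

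RNA of granulosa layers from Luhua hens at 31 weeks of age was sequenced at 10 stages, with 3 libraries per stage and 30 in all. The stages were SWF, the large white (LWF), small yellow (SYF) and large yellow follicle (LYF), the hierarchy from F5 up to F1, and POF, and no hen received a treatment according to the labels. The study calls the 3 libraries of a stage biological replicates, but nothing in the sources states how many hens gave each, so the p-values measure the spread between libraries. Titles and descriptions exchange LWF and SYF for 6 libraries; the stage names here follow the descriptions and data columns, and the test on these stages takes them together.

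The files do not pair the identifiers with gene names, and none of the 83 members was matched to a name in the reference tables. No function is therefore given for any member, and the members could not be sorted by pathway. By a naming rule, 4 identifiers are printed, 2 with a POF mean above F1 and 2 with a POF mean below it. The other members are described by their values and counts. The granulosa label could likewise not be checked against a marker list. ZP3, a zona pellucida glycoprotein that granulosa cells make in birds, is among the few genes whose identifier the study gives.

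The POF libraries stood apart from one another, which bears on each value after ovulation given below. ZP3 was at 341, 1182 and 9970 FPKM in POF replicates 1, 2 and 3, against 61147 to 79014 FPKM in the F1 libraries. The rank correlation across genes with the F1 libraries was on average 0.662, 0.733 and 0.849 for the same POF replicates. POF replicate 3 was thus the nearest to F1 by both measures. POF replicate 3 and F1 replicates 2 and 3 also belong to the 6 libraries that the study's read statistics give a higher base quality (higher Q30). In layers of tissue, fewer cells of a type and less RNA per cell cannot be told apart.

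Most members were of moderate level in F1. The F1 mean ran from 5.05 to 344 FPKM with a median of 19.4 FPKM. It was under 10 FPKM in 23 members, from 10 to under 100 in 50 and at least 100 in 10. The reduced F1-peak genes had a median F1 mean of 60.2 FPKM, and 37.9% of them were at 100 FPKM or more, against 10 of the 83 members. The F1 mean is both a value of the rule and the denominator of the ratio that separates these sets, so the difference is a description only.

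The selected genes were low until F5 and higher late in the hierarchy. Their median stage mean was 2.39 FPKM in SWF, 2.07 in LWF, 1.91 in SYF and 2.58 in LYF. In the hierarchy it went from 3.73 FPKM in F5 to 4.14 in F4, 6.23 in F3 and 9.24 in F2. It was 19.4 FPKM in F1 and 19.8 in POF. Between F2 and F1 the median about doubled. Between F1 and POF this median over genes was level, though most members had a POF mean below their F1 mean. The high F1 mean, its ratio to SWF and the POF level were set by the rule, and they are given as a description with no test.

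Relative to its own F1 mean, the median member stood at 0.155 in SWF, 0.157 in LYF, 0.211 in F5 and 0.223 in F4, and then at 0.407 in F3 and 0.567 in F2. The F1 mean was a median of 6.26 times the SWF mean, and from 4.06 to 321 times where SWF was above 0. In 2 members all SWF libraries were listed at 0, and no ratio is given for them. The plot of stage means shows this spread as a fan of lines that narrows from SWF to F2.

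Members differed in when they came near their F1 level. In 35 of 83 (42.2%), the F2 mean was under 0.5 times the F1 mean, whatever the level at the stages before F2. A level of at least 0.5 times F1 was held without a break from F2 on in 18 members and from F3 on in 20. It was held from F4, F5 or LYF on in 2, 4 and 4. F2 was the next highest stage before ovulation in 56 members and F3 in 14. The lowest stage was SWF in 31, LYF in 17, LWF in 13 and SYF in 12.

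The step from F2 to F1 was larger than the spread between libraries in a minority. Every F1 library was above every F2 library in 20 members (24.1%), and above every other library before ovulation in 12. Of all genes tested, 5.01% had all F1 libraries above all F2 libraries and 0.888% had them above all others before ovulation. The share for F1 over F2 was 21.6% among the reduced F1-peak genes. As F1 had to be the highest of these stages, no test belongs to these counts.

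Between SWF and LYF the members went both ways. The LYF mean was above the SWF mean in 48 members. It was below in 35 (42.2%), against 25.1% of the reduced F1-peak genes and 73.0% of all genes tested. The rule bounds SWF from above, so these shares are a description. In 22 members the LYF mean was at least 2 times SWF, and in 15 it was under 0.5 times SWF. Shares over all genes were not taken for these 2 counts. The median stage mean of the 15 went from 2.84 FPKM in SWF through 1.78, 1.10 and 0.457 FPKM in LWF, SYF and LYF. It was 17.1 in F1 and 17.3 in POF. The median of these 15 members returned above the SWF level by F3, where it was 4.0 FPKM.

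As a share of all FPKM in a library, the 83 members together gave 0.104% ± 0.041 in SWF, 0.190% ± 0.073 in LYF and 0.235% ± 0.045 in F5 (SD, n = 3 each). The share was 0.406% ± 0.153 in F2, 0.679% ± 0.035 in F1 and 0.802% ± 0.164 in POF (SD, n = 3 each). The F1 libraries, from 0.64% to 0.710%, lay within the range of the POF libraries, from 0.639% to 0.968%. The member with the highest F1 mean gave 16.4% to 19.6% of the members' total in the POF libraries. A share of FPKM is relative to the rest of the library, and so are ratios of FPKM between stages. ZP3, given above, was at far lower FPKM in POF than in F1. The part of such changes in other genes in the members' values after ovulation was not tested.

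After ovulation the members split in both directions around F1. The POF mean was above the F1 mean in 29 members and below it in 54, and the median ratio of POF to F1 was 0.854. The ratio ran from 0.504 to 19.9, and 10 members were at 2 times F1 or more. Among the reduced F1-peak genes the median ratio was 0.171, and the rule kept each of them under 0.5. A POF mean of at least 0.5 times F1 was not particular to the members. It was found in 88.4% of 7020 genes that were not selected for an F1 peak, defined below by floors in F1 and POF. Their floor in POF leaves out genes of low level after ovulation, which raises this share. At the threshold itself, the nearest members had ratios of 0.504 and 0.510 and the nearest genes outside 0.490 and 0.487. For F1 over SWF, the nearest values were 4.06 and 4.07 inside and 3.96 and 3.94 outside, and for the F1 mean 5.05 and 5.27 FPKM inside and 4.72 and 4.71 outside.

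The libraries of the stages mostly overlapped. Every POF library was above every F1 library in 3 members, and every one was below in 3, while 77 members overlapped. Among all 15197 genes tested, 37.9% had all POF libraries above all F1 libraries and 8.83% had them below. These shares are given as background only, since the rule used this contrast. Every POF library was above every SWF library in 49 members, against 13.7% of all genes tested, and this contrast too follows from the rule.

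The POF mean of many members rested on 1 library. All 3 POF libraries were at or above 0.5 times the F1 mean in 19 members, 2 libraries in 35 and 1 library in 29. Of those 29, the library was POF replicate 3 in 20, replicate 1 in 8 and replicate 2 in 1. Among members with a POF value above 0 in each library, the highest was a median of 5.29 times the lowest. The F1 libraries of the members differed by a median of 1.81 times. In 7020 genes with means of at least 5 FPKM in F1 and 2.5 in POF, and no F1 or POF library at 0, the same medians were 1.86 for POF and 1.42 for F1. A rule on the mean admits a gene through a single high library, so a wide spread among the members is partly built in.

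**Figure D1:**
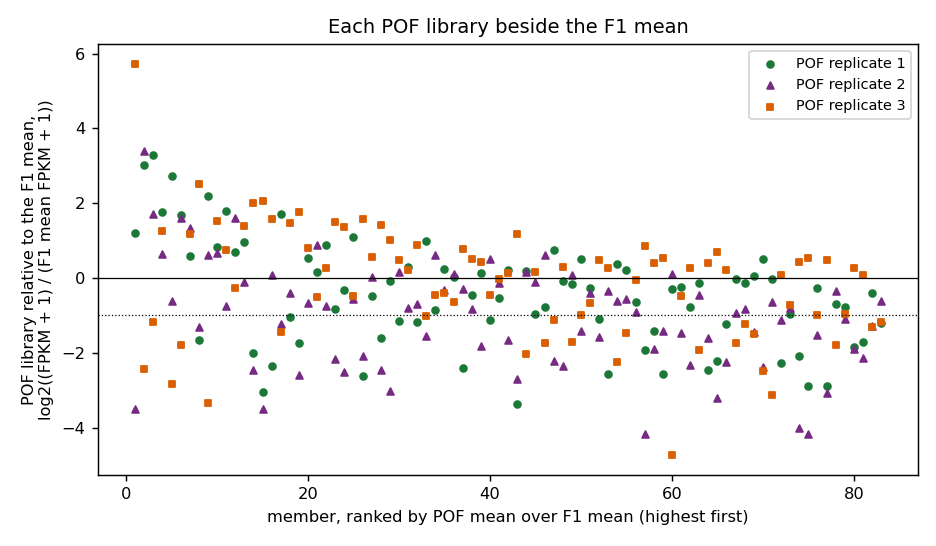
Each POF library of each of the 83 members relative to the F1 mean, as log2 of (FPKM + 1) over (F1 mean FPKM + 1), with members ranked by POF mean over F1 mean. The solid line marks equality with F1, the dotted line a ratio of 0.5 of FPKM + 1, and the 3 marks of a member are often several log2 units apart.

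Taken library by library, the median member stood at 0.769 times the F1 mean in POF replicate 1, 0.535 in replicate 2 and 1.14 in replicate 3. POF replicate 3 was the highest POF library in 42 members (50.6%), replicate 1 in 29 (34.9%) and replicate 2 in 12 (14.5%). Among the 7020 genes above the floors in F1 and POF, which were not matched to the members in level, the same shares were 44.3%, 26.2% and 29.5%. Within the higher Q30 libraries, POF replicate 3 over F1 replicates 2 and 3, 61 members were at 0.5 or more with a median ratio of 1.08. Within the other libraries 50 members were, with a median of 0.622, and 29 members were at 0.5 or more in both. The part of base quality in these values was not tested.

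The members were split by which POF libraries were at or above 0.5 times the F1 mean. In the 19 members held by all 3 libraries, the median ratios to F1 were 1.25, 0.916 and 1.17 in POF replicates 1, 2 and 3, and the POF mean exceeded F1 in 11. In the 20 members held by POF replicate 3 alone, they were 0.170, 0.110 and 1.49. In 16 members held by replicates 1 and 2 but not 3, they were 1.07, 0.921 and 0.214. By this sorting, the members held by replicate 3 alone and these 16 were opposite in which POF libraries were low. By definition, the first of these sets was highest in POF replicate 3, the POF library with the highest ZP3, and the second was lowest there. These sets were defined by the POF values themselves, and the part of the differences between POF libraries was not tested.

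The 10 members at 2 times F1 or more also differed in which POF library was high. They were picked on these same POF values, so this is a description. In 5 of them POF replicate 3 was under the F1 mean and replicate 1 was above every F1 library. The member with the second highest ratio, 6.56, was at 168, 216 and 2.84 FPKM in POF and at 32.2, 15.2 and 11.6 FPKM in F1. The member with the third highest, 4.96, was at 82.3, 27.1 and 2.79 FPKM in POF and at 6.13, 6.35 and 10.2 FPKM in F1. In both, POF replicate 3 was below every F1 library. In 2 others POF replicate 3 carried the ratio, and in the remaining 3 every POF library was above every F1 library.

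ENSGALG00000044735 had the highest ratio of POF to F1. It was at 32.2, 0.263 and 763 FPKM in the 3 POF libraries and at 15.6, 20.1 and 4.33 FPKM in F1. Its POF libraries lay above, below and far above those of F1, so the ratio of 19.9 rested on POF replicate 3. It was listed at 0 in all SWF and SYF libraries, and was between 0 and 3.92 FPKM in every library from LYF to F2. Among the stages before ovulation every F1 library was above every other library. Its F1 mean of 13.3 ± 8.11 FPKM (SD, n = 3) was the 53rd highest of the members.

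ENSGALG00000027070 had the highest F1 mean and a still higher mean after ovulation. It was at 365, 343 and 323 FPKM in F1 and at 615, 552 and 984 FPKM in POF. All POF libraries were above all F1 libraries, and the ratio of the means was 2.08. Before F1 it was at 69.3, 47.5 and 14.1 FPKM in SWF, 23.6, 9.30 and 22.1 in F5, and 41.0, 48.0 and 182 in F2. The SWF and F2 libraries overlapped, the F5 libraries were all below those of F2, and no library before F1 exceeded 182 FPKM.

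ENSGALG00000025842, the second highest in F1, was already high before the hierarchy. It was at 186, 193 and 195 FPKM in LYF, against 66.3, 59.3 and 42.3 in LWF and 58.1, 41.5 and 155 in SYF. Every LYF library was above every library of LWF and SYF. From F5 to F2 its stage means stayed between 201 and 224 FPKM. It was at 195, 395 and 384 FPKM in F1 and at 150, 463 and 235 FPKM in POF, with overlapping libraries and a ratio of the means of 0.870.

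ENSGALG00000009052, the third highest in F1, had higher means from F3 on. It was at 37.1, 23.1 and 26.1 FPKM in F5, 31.5, 116 and 108 in F3, and 39.4, 33.2 and 304 in F2. F2 replicate 3 stood far above the other F2 libraries, which overlapped F5. It was at 324, 207 and 240 FPKM in F1 and at 150, 394 and 76.3 FPKM in POF, a ratio of 0.804 with POF libraries on both sides of F1.

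**Figure D2:**
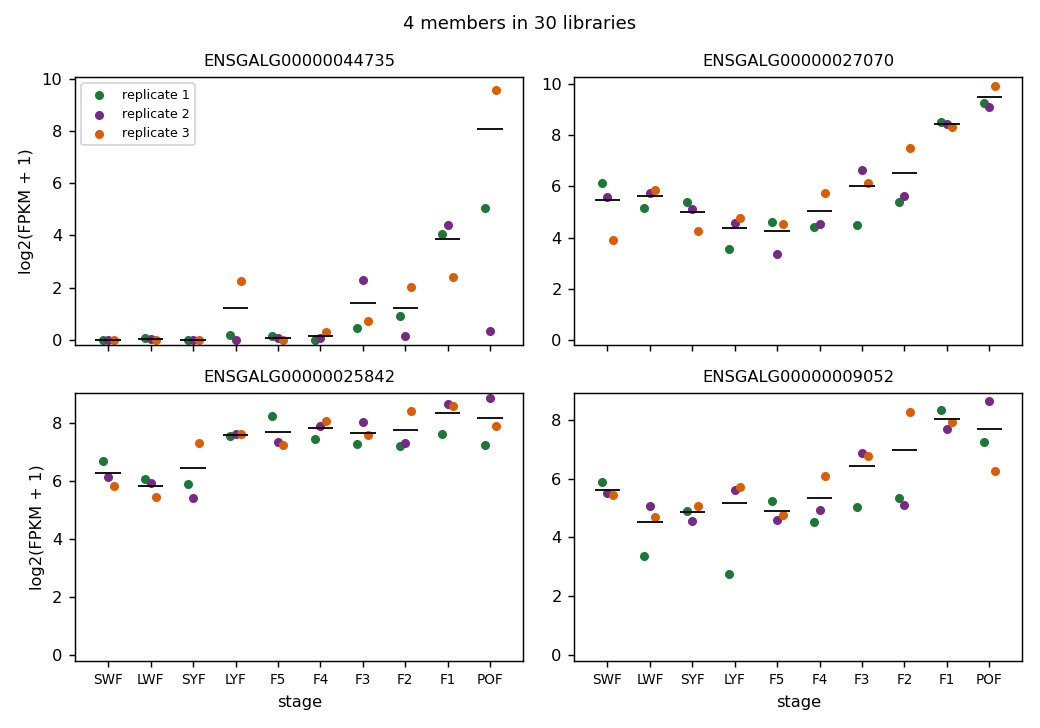
The 4 printed identifiers in all 30 libraries, as log2(FPKM + 1) by stage, with 1 point per library and a bar at log2(mean FPKM + 1) of the 3 libraries. ENSGALG00000027070 has all 3 POF points above its F1 points, while ENSGALG00000044735 has its POF points on both sides of F1. The axes of the 4 panels differ in their upper limit.

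The rule bounds the stages LWF to F2 only from above, by F1, so it does not fix the changes among them, which were tested. The low SWF and high F1 that it demands still favour a rise between those ends. In each test below, the counts and medians of the members beside those of all genes are therefore a description of selected genes. Each test was fitted with limma over the 15197 genes that passed a filter on low values, as all 83 members did, on log2(FPKM + 1), with Benjamini-Hochberg adjustment. The calls required an adjusted p below 0.05 together with a change of FPKM + 1 by more than 1.5 times. A level of at least 5 FPKM in F1, which the rule demands, nearly ensures passing the filter.

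The first question was whether the members changed through the hierarchy before F1. Fitted over the 12 libraries from F5 to F2, 31 of the 83 members rose (37.3%) and 0 fell. At an unadjusted p under 0.05 in limma, 49 members were higher and 3 lower, against 1155 and 4426 of all genes. Of all genes tested, 3.84% rose and 15.7% fell. The fitted change from F5 to F2 had a median of 1.19 on the log2 scale in the members, from -1.66 to 4.86, against -0.17 over all genes, and it was positive in 75 of 83. Of the reduced F1-peak genes, 121 of 226 tested (53.5%) rose and 1 fell, with a median of 1.33. Both sets were selected for a high F1, the upper end of this course, so the shares describe them and no difference between the sets was tested.

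In the 31 members that rose, the median stage mean went from 3.62 FPKM in F5 through 4.24 in F4 and 14.4 in F3 to 21.5 in F2, and stood at 27.2 in F1 and 20.5 in POF. Their fitted change ran from 0.68 to 4.86 with a median of 1.88 on the log2 scale (SE 0.20 to 0.996). Their adjusted p in limma ran from 0.0065 to 0.0466. Every F2 library was above every F5 library in 46 of the 83 members, against 7.85% of all genes tested. The 46 included all 31, which were called on these same libraries, so that count adds no support to the calls. Most of the median's rise fell between F4 and F3.

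**Figure D3:**
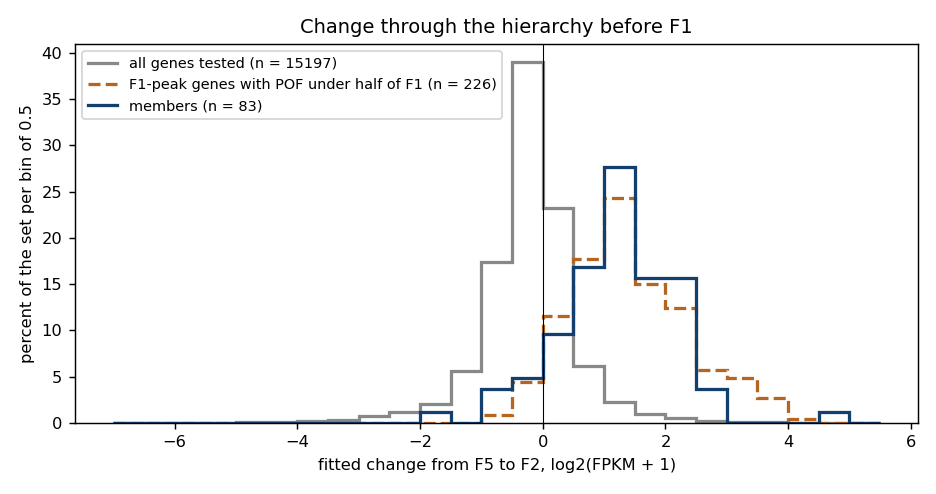
Percent of each set by the fitted change from F5 to F2 on the log2(FPKM + 1) scale, in bins of 0.5, for all 15197 genes tested (grey), the 226 reduced F1-peak genes tested (dashed) and the 83 members (dark). The members centre on 1.19, near the reduced F1-peak genes at 1.33, while the genes as a whole centre on -0.17.

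The largest fitted change, 4.86 ± 0.996 (SE), belonged to a member with stage means of 0.498 FPKM in F5 and 1.69 in F4, then 33.0 in F3 and 33.6 in F2, and 99.4 in F1 with 90.6 in POF. The lowest adjusted p, 0.0065, belonged to a member that climbed at each stage, with means of 41.9, 52.0, 80.5, 108 and 112 FPKM from F5 to F1 and 60.4 in POF. Across the members, 34 had a mean that rose at each step from F5 to F2, a count for which no share over all genes was taken. The named members differed here. ENSGALG00000027070 rose by 2.06 ± 0.63 (SE, log2 scale, adjusted p = 0.0369 in limma). ENSGALG00000009052 had a fitted change of 1.54 ± 0.74 and ENSGALG00000044735 of 1.17 ± 0.49, which did not pass (adjusted p = 0.158 and 0.107 in limma). ENSGALG00000025842 had a change of -0.02 ± 0.33 (adjusted p = 0.996 in limma).

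Members that rose through the hierarchy were mostly below F1 afterwards. Their median ratio of POF to F1 was 0.773, and the POF mean was above F1 in 6 of 31. In the 52 members that were not called, the median ratio was 0.950 and the POF mean was above F1 in 23. The called members were spread over the POF patterns, with 7 of the 19 held by all 3 POF libraries, 14 of the 35 held by 2 and 10 of the 29 held by 1. These are counts, and the differences between them were not tested.

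The count depended on single libraries. F2, F3 and F4 replicate 3 belong to the higher Q30 group, and without them 10 members rose and 1 fell, of all genes 1.47% and 6.37%. This alternative was chosen after seeing the data. Its median change in the members was 0.94 on the log2 scale, against 1.19 with all 12 libraries. Over all genes it was -0.14, against -0.17. The change was positive in 72 of the 83 members, against 75 with all 12 libraries. Without F5 replicate 2, 18 members rose and 0 fell, while 1.77% of all genes rose and 9.69% fell. Without F2 replicate 3, 18 members rose and 2 fell, while 2.30% of all genes rose and 9.40% fell. The call for ENSGALG00000027070 was lost in each of these fits and in others, at adjusted p values from 0.0526 to 0.125 in limma. Its fitted change in the fits that lost the call was between 1.53 and 2.22 on the log2 scale.

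The second question was whether the members changed between the stages before the hierarchy. From LWF and SYF as a joint group (6 libraries) to LYF (3 libraries), 2 of the 83 members rose and 1 fell. Of all genes tested, 0.763% rose and 6.55% fell. The members' median change was 0.09 on the log2 scale, against -0.26 over all genes. Of 226 reduced F1-peak genes tested, 16 rose and 2 fell. ENSGALG00000025842 was 1 of the 2 that rose, by 1.59 ± 0.36 (SE, log2 scale, adjusted p = 0.0381 in limma). The other rose by 1.55 ± 0.37 (adjusted p = 0.0403 in limma), from means of 2.07 FPKM in LWF and 1.07 in SYF to 6.04 in LYF. The member that fell changed by -1.40 ± 0.30 (adjusted p = 0.0356 in limma), from 5.37 and 5.54 FPKM to 1.46.

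These 3 calls were fragile. Leaving out any 1 of the 9 libraries gave 0 called members, except SYF replicate 3, without which 16 were called, 11 higher and 5 lower. In that fit 3.60% of all genes were higher and 13.1% lower, so the calls increased over all genes as well. The calls over all 15197 genes also fell, from 1111 to between 0 and 5, in the fits with 0 called members. The exception was the fit without LYF replicate 2, where 917 genes were called. In the fits with 0 calls, 4 to 25 members were higher and 2 to 7 lower at an unadjusted p under 0.05 in limma. With upper quartile scaling the split of the calls was 2 up and 0 down, and quantile normalization gave 3 up and 0 down. The downward calls dropped over all genes too. Those went from 116 up and 995 down to 117 and 273 with upper quartile scaling, and to 187 and 190 with quantile normalization.

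The third question was whether the entry into the hierarchy, from LYF to F5, changed the members. In limma 0 of 83 members were called, as were 0% of the 15197 genes. At an unadjusted p under 0.05, 2 members were higher in F5 and 0 lower, against 352 and 95 of all genes. The median change was 0.24 on the log2 scale in the members and 0.09 over all genes. With quantile normalization these medians were 0.12 and -0.005. With 1 library left out they ran from 0.06 to 0.36 in the members and from 0 to 0.16 over all genes.

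The membership itself depended on which libraries entered the means. Leaving out 1 library of SWF, F1 or POF in turn gave between 61 members, without POF replicate 3, and 101, without SWF replicate 1. Of the 83, 21 met the rule in every such subset. These 21 had a median ratio of POF to F1 of 0.939, and 11 of them were held by all 3 POF libraries. From F5 to F2, 11 of the 21 rose, against 31 of the 83 members and 3.84% of all genes tested. The 21 were picked on the rule's own SWF, F1 and POF values, so these counts are a description. Their median stage means were 3.74 FPKM in F5, 8.56 in F3, 13.8 in F2, 22.5 in F1 and 25.4 in POF. With stage medians in place of means 60 genes met the rule, of which 44 were among the 83.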

How the data were processed

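Granulosa RNA of 30 libraries was measured by strand-specific RNA-seq depleted of rRNA. The authors deposited FPKM per gene and library, without read counts, so no counting interval is given for single values. The submitters' processing notes name HISAT2 2.1.0, StringTie 1.3.3 and the build GRCg6a. The authors named DESeq2 for their own tests, which needs counts and was not run.

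The members and lists were chosen with earlier results of these data known. Stage means were taken from the FPKM as deposited. The filter retained 15197 genes that exceeded 0.5 FPKM in 2 or more libraries of any stage. Values were tested as log2(FPKM + 1), with a pseudocount of 1, which understates the change of low genes. limma 3.58.1 (lmFit and eBayes with a trend) in R 4.3.3 was fitted to the libraries of each comparison and its p-values were adjusted over the retained genes (Benjamini-Hochberg), and the scripts were tested on simulated data. The course from F5 to F2 was a slope on the rank of the stage, reported over 3 ranks. Members were tallied in Python 3.11.15 and plotted with matplotlib 3.10.9.

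Because the identifiers carry no names (0 of the 83 members matched), 18 lists of genes by symbol could not be used. The naming rule allowed at most 2 identifiers with POF above F1 (the highest ratio, and the highest F1 mean) and the 2 highest F1 means with POF below F1. Members quoted without an identifier were chosen after their values were seen. Alternatives covered the pseudocount, the filter, scaling, all 30 libraries in the fit, a replicate block, single libraries and the thresholds of the rule.

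Same-numbered libraries of different stages were compared by the correlation of their deviations from the stage means, which ran from -0.397 to 0.469. In 1 of 9 stage pairs every correlation was over 0.1, and the numbers were not taken as pairs. All 3 libraries matched best with their own number from LWF to LYF and from F4 to F2, and 0 did from F5 to F2. F1 and POF were not in this check, so whether same-numbered libraries share hens was not settled.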

Additional observations from a re-analysis of the deposited data

How the results depend on the processing

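The number of members depended mainly on the rule. It was 29 with POF at least equal to F1, 204 with F1 at least 2 times SWF and 130 with an F1 mean of at least 1 FPKM, and it ran from 61 to 101 when 1 library was left out. Upper quartile scaling gave 114 members, of which 71 were shared. The course from F5 to F2 gave 31 called members, 18 to 35 when 1 library was left out, and 11 without the higher Q30 libraries. Of these 11, 10 rose and 1 fell. The calls over all genes in the same fits were 2971, 1742 to 3246, and 1192. Under the other settings 26 to 39 members were called, and 2270 to 3217 of all genes. Scaling moved the median change of all genes from -0.17 to -0.06 (upper quartile) or 0.01 (quantile). The members' median was then 1.37 or 1.42, and 34 or 39 rose and 0 fell, while the genes as a whole went from 583 up and 2388 down to 754 and 1516, or 1027 and 1291. From LWF and SYF to LYF, 3 members were called, 0 to 16 when 1 library was left out. Of all genes 1111 were called, 0 to 2543 when 1 library was left out. The count from LYF to F5 was 0 throughout, with 1 to 9 members higher at an unadjusted p under 0.05. With a replicate block the counts were 0, 4 and 30 for LYF to F5, LWF and SYF to LYF, and F5 to F2. Over all genes they were 0, 1004 and 3000. Of the 4 members, 3 were higher in LYF and 1 lower. The replicate block left ENSGALG00000025842 at an adjusted p of 0.0503 in limma from LWF and SYF to LYF. For the 4 printed identifiers, 146 of the alternative values kept their direction and their side of the threshold, 17 lost the call, 2 gained it and 19 changed sign without being called in either fit. The values that changed sign are given here on the log2 scale. From LYF to F5, with 1 library left out, ENSGALG00000027070 ranged from -0.49 to 0.28, ENSGALG00000025842 from -0.31 to 0.19 and ENSGALG00000009052 from -0.80 to 0.69. ENSGALG00000025842 was at -0.084 there with upper quartile scaling and -0.059 with quantile normalization. From LWF and SYF to LYF, ENSGALG00000009052 ranged from -0.42 to 1.07. From F5 to F2, ENSGALG00000025842 ranged from -0.32 to 0.20 and was at 0.21 with upper quartile scaling. FPKM carry no read depth.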
